A study of Mus musculus with 12 samples.

Results

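The genes described here encode myosin light chains and the kinases that phosphorylate them. They are 10 named genes, chosen by symbol, of the 16288 genes listed in at least 1 library: the essential light chains Myl1, Myl3, Myl4, Myl6 and Myl6b, the regulatory light chains Mylpf and Myl2, and the light chain kinases Mylk, Mylk2 and Mylk4. RNA sequencing was done on C2C12, an immortalized mouse myoblast line that fuses into multinucleated myotubes in low serum. Proliferating cells in growth medium with 10% fetal bovine serum (GM) and cells 24 h or 48 h after a change to medium with 2% horse serum and insulin (DM) were compared. At each stage cells received DMSO, the solvent, or 50 uM PFI-3, a small molecule that binds the bromodomains of the SWI/SNF chromatin remodelling ATPases BRM and BRG1 and of the related subunit PB1. Exposure to either agent began 12 h before the GM harvest or before the start of differentiation, and was renewed every 24 h in differentiation medium. Each of the 6 groups held 2 libraries, A and B. The study describes the pair as biological duplicates of 1 cell line, without saying how they were grown or what the letters mark, so the p-values measure only the spread between these libraries.

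Myosin is a motor built from heavy chains, each of which carries 1 essential and 1 regulatory light chain on its lever arm. The essential chain stiffens the lever. The regulatory chain is phosphorylated by light chain kinases under the control of calcium and calmodulin, which switches smooth muscle and nonmuscle myosin on and modulates force in striated muscle. Skeletal muscle cells replace the nonmuscle chains with sarcomeric ones as they differentiate.

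Total expected counts ranged from 12576374 to 13658352 per library, and 9 of the 10 genes passed the filter on low counts. Counting error covers only part of the uncertainty, since reads amplified by PCR are not independent molecules. None of 6 myoblast and muscle markers was at 0 in every library, and their summed level was 435 to 686 CPM (counts scaled by library total) in GM and 8130 to 11500 CPM at 48 h. Markers of endothelial, epithelial, blood and heart muscle cells summed to at most 1.22, 1.39, 10.9 and 18.5 CPM in any library. The 2 GM pairs differed more than the other pairs, with a chi-square per degree of freedom of 17.9 for DMSO and 13.4 for PFI-3, against 1.73 to 2.09 in differentiation medium. Library A of the GM DMSO group stood apart in the 6 smooth muscle markers, which summed to 4700 CPM there and to 1710 CPM in library B.

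Promoter windows of 4 of the genes are shown because these genes moved in different ways below. Mylpf and Mylk4 rose in differentiation and were lower with PFI-3, Myl4 had the lowest PFI-3 to DMSO ratio among the well counted genes at 24 h, and Mylk was higher with PFI-3. Each run is the genome sequence before the RefSeq start site (GRCm38.p6), 5′ to 3′ on the strand of the gene, with E-boxes (CANNTG, the core bound by myogenic factors such as MyoD and myogenin) in capitals. The Mylk run ends 29 bases before the listed start, where an annotated exon begins.
Mylpf, chr7:127211358-127211607, plus strand: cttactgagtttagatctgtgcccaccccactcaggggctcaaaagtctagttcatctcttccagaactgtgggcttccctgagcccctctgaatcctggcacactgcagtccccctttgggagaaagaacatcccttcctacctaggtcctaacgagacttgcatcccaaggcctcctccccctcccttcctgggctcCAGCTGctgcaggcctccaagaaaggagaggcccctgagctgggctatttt
Mylk4, chr13:32783965-32784214, minus strand: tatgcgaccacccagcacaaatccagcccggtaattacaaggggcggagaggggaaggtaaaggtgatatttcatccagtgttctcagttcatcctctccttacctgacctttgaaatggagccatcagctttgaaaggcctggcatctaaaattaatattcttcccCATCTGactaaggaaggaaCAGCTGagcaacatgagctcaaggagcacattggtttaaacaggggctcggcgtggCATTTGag
Myl4, chr11:104550413-104550662, plus strand: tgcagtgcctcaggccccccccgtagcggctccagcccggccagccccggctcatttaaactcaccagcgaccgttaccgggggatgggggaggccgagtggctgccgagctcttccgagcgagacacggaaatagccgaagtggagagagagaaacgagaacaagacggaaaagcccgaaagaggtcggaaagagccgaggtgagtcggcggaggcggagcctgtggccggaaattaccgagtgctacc
Mylk, chr16:34784700-34784920, plus strand: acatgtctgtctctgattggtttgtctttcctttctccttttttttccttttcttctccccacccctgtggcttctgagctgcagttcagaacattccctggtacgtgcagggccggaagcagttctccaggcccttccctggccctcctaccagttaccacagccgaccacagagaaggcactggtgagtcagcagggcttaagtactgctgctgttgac

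The Mylpf window held 1 E-box, the CAGCTG form, 51 bases before the start site. The Mylk4 window held 3, at 83, 64 and 8 bases before it, of which the one at 64 was CAGCTG, and a motif for MEF2, a partner of the myogenic factors, at 103 bases. The Myl4 and Mylk windows held none of the motifs searched, which says only that these letters are not in these 250 bases. Windows were matched for 9 of the 10 genes (11 start sites), Mylk2 being the other, and CAGCTG was found before Myl1 (224 bases), Mylpf, Mylk4 and 1 of 2 Myl2 starts (130 bases). The Myl1 window and the 2 Myl6 windows lie inside the annotated span of their own gene and begin in one of its exons. The Mylpf, Mylk and Myl3 windows also lie inside the annotated span of their own gene. An exon of Myl3 begins 32 bases before its listed start. The 2 Myl2 starts (122092724 and 122093189) lie upstream of the Myl2 gene coordinates given below. Matches in these windows are therefore not placed just before the gene. Among 32851 windows of the same length in the mouse genome, 66.2% held an E-box, 13.0% CAGCTG, 2.92% a MEF2 motif, 1.47% a CArG box (the site of serum response factor) and 12.4% TATAAA. CArG boxes lay 50 bases before 1 of 2 Myl6 starts and 85 bases before Myl3, and TATAAA 95 bases before Myl1 and 216 before the same Myl2 start that held CAGCTG. All motifs were searched on both strands, every CAGCTG is also an E-box, and a match is a description of letters, not a bound site.

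**Figure D1:**
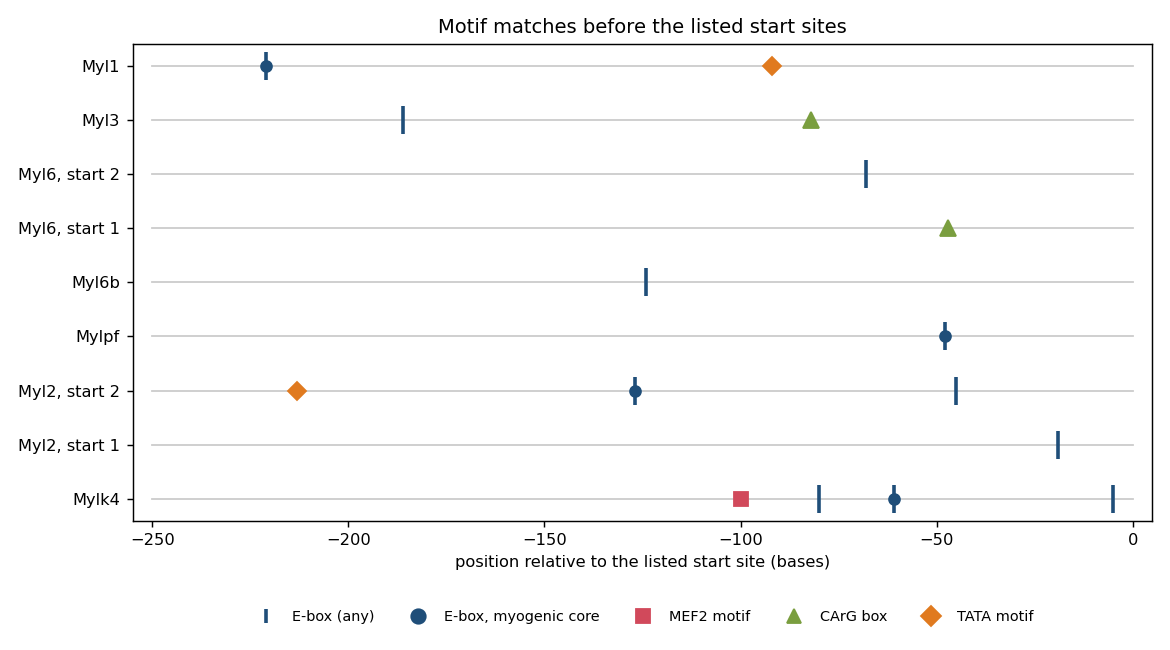
Motif matches in the 250 bases before the listed start sites; the x axis is the distance from the start site in bases, each line is a window of 1 gene or start, and symbols mark the motifs named in the key. Mylk4 holds 3 E-boxes and a MEF2 motif, Mylpf a single CAGCTG, and Myl4 and Mylk are not drawn because they hold no match.

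The sarcomeric chains Mylpf, Myl1 and Myl4 were at or near 0 in proliferating cells and the 3 most abundant of the 10 genes per length by 48 h with DMSO. Mylpf, the fast skeletal regulatory chain (gene 17907; chr7:127208890-127214298, plus strand, GRCm38), had 1.15 and 1.28 FPKM (a level per unit of transcript length and of library depth) in the GM DMSO libraries A and B, 299.72 and 287.92 at 24 h, and 2878.39 and 2876.71 at 48 h. The groups did not overlap, and the rise was 259-fold from GM to 24 h (log2 fold change 8.02, SE 0.13, adjusted p = 5.95e-13) and 10.2-fold from 24 h to 48 h (3.35, SE 0.07, adjusted p = 2.14e-11). Myl1, which encodes the fast skeletal essential chains (gene 17901; chr1:66924295-66945404, minus strand), had 0 and 2 counts in GM, 917 and 881 at 24 h, and 13827 and 13446 at 48 h with DMSO. Over both libraries the 24 h to GM ratio was 926, with a 95% exact counting interval of 256 to 7650, so its size is loosely bound by the 2 counts in GM. From 24 h to 48 h Myl1 rose 15.8-fold (log2 fold change 3.98, SE 0.08, adjusted p = 1.69e-11).

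Myl4, the embryonic and atrial essential chain (gene 17896; chr11:104550663-104595753, plus strand), followed the same course from a low but measurable start. Its DMSO libraries had 1.26 and 0.99 FPKM in GM, 40.79 and 37.29 at 24 h, and 791.35 and 804.96 at 48 h, rises of 33.0-fold (adjusted p = 5.15e-11) and 21.3-fold (adjusted p = 1.35e-11). Myl6b, an essential chain of slow muscle and nonmuscle cells (gene 216459; chr10:128494157-128498685, minus strand), rose less. Its DMSO libraries had 3.84 and 7.11 FPKM in GM, 28.50 and 27.33 at 24 h, and 235.27 and 235.18 at 48 h, rises of 4.91-fold (adjusted p = 1.87e-06) and 8.80-fold (adjusted p = 1.43e-08). The 2 GM libraries of Myl6b differed more from each other than those of the later stages.

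Myl2 and Myl3 stayed near the limit of detection. Myl2, the slow and ventricular regulatory chain (gene 17906; chr5:122100951-122113472, plus strand), had 0 counts in all 4 GM libraries, 3 and 1 at 24 h with DMSO, and 28 and 17 at 48 h with DMSO. The rise between the last of these stages was called (adjusted p = 0.00172) and rests on 45 against 4 counts, a ratio of 11.7 with a 95% exact counting interval of 4.27 to 44.9. Myl3, the slow and ventricular essential chain (gene 17897; chr9:110741861-110769798, plus strand), had 1 count in library A of the 48 h DMSO group, 1 in library B of the 48 h PFI-3 group and 0 elsewhere, which allows up to 3 counts in any library at 0. It was below the filter and was not tested.

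Myl6, the essential chain of nonmuscle and smooth muscle myosin (gene 17904; chr10:128490860-128494145, minus strand), moved the other way. Its DMSO libraries fell from 1010.70 and 841.59 FPKM in GM to 677.53 and 690.28 at 24 h and to 441.28 and 452.36 at 48 h, without overlap. The log2 fold changes were -0.49 (SE 0.09, adjusted p = 0.000542) and -0.55 (SE 0.09, adjusted p = 0.000329). The gene lies 11 bases from Myl6b on the same strand, and how reads across neighbouring genes were divided is not given in the sources used here.

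Of the 9 genes tested, 6 rose and 2 fell from GM to 24 h with DMSO, where 30.6% of all genes tested rose and 30.0% fell. From 24 h to 48 h 7 rose and 1 fell, against 24.2% and 23.9% of all genes. The median log2 fold change from 24 h to 48 h was 3.14 over the 9 and 0.00 over all genes; the 24 h libraries enter both comparisons. A gene that passed the filter only through its level in differentiation, such as Myl1 or Myl2, had to differ from GM. Myl2 passed only through the 48 h DMSO libraries, which also favoured its rise from 24 h. Myl6, Myl6b and Mylk2 had at least 51 counts in every GM library and did not depend on differentiation to pass. These counts describe the genes and support nothing further.

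**Figure D2:**
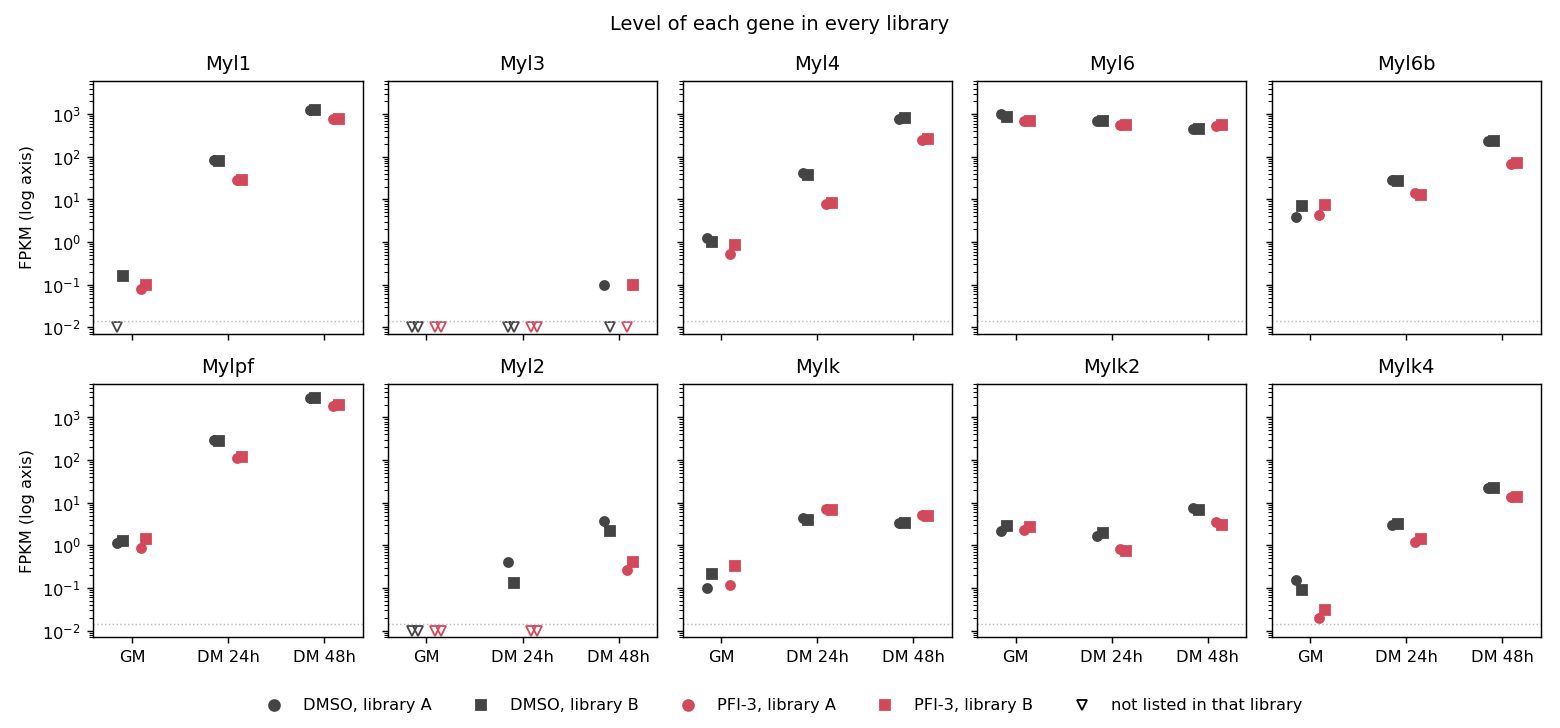
FPKM (log axis) of each gene in every library by stage, with DMSO in grey and PFI-3 in red, circles for library A and squares for library B; open triangles mark a library that does not list the gene. Mylpf, Myl1 and Myl4 climb steeply from GM to 48 h, and Myl6 declines slightly. Mylk is highest at 24 h, although its difference between 24 h and 48 h with DMSO was not called.

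The 3 kinases each had a different course with DMSO. Mylk2, the skeletal muscle light chain kinase (gene 228785; chr2:152911352-152923068, plus strand), was the highest of them per length in GM, with 2.23 and 2.83 FPKM, then 1.63 and 1.99 at 24 h and 7.56 and 6.59 at 48 h. It fell 1.44-fold from GM to 24 h (adjusted p = 0.0237) and rose 4.08-fold from 24 h to 48 h (adjusted p = 9.87e-07). The early fall lost its call in 2 of the 4 fits that left out 1 of its libraries (adjusted p up to 0.161), with DESeq2 (0.0799) and with only the libraries compared (0.0798).

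Mylk, the kinase of smooth muscle and nonmuscle cells (gene 107589; chr16:34745210-35002420, plus strand), was low in GM at 0.10 and 0.21 FPKM. It rose 25.3-fold to 4.29 and 3.97 FPKM at 24 h (adjusted p = 1.90e-08) and was at 3.36 and 3.32 FPKM at 48 h, a difference from 24 h that was not called (log2 fold change -0.24, SE 0.16, adjusted p = 0.235). Mylk was thus the highest of the 3 kinases at 24 h, where its 2 libraries lay above those of Mylk4 and Mylk2. Mylk4, a less studied kinase of the family (gene 238564; chr13:32700834-32783954, minus strand), had 0.15 and 0.09 FPKM in GM, 3.08 and 3.17 at 24 h and 21.68 and 22.24 at 48 h. Its rises were 25.1-fold (adjusted p = 7.96e-10) and 7.33-fold (adjusted p = 3.07e-10), and it was the highest of the 3 at 48 h.

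PFI-3 lowered 7 of the 9 genes tested at 24 h and 7 at 48 h, and 1 gene, Mylk, rose at each stage. Over all genes 11.4% fell and 12.2% rose at 24 h, and 14.0% fell and 13.4% rose at 48 h. The median log2 fold change was -1.29 over the 9 genes at 24 h and -0.81 at 48 h, against 0.00 over all genes at 48 h. At 24 h the 7 were Myl1, Myl4, Myl6, Myl6b, Mylpf, Mylk2 and Mylk4, and at 48 h Myl2 took the place of Myl6. Myl2 passed the filter only through the 48 h DMSO libraries, with 28 and 17 counts against 3 or fewer elsewhere. Its fall at 48 h was thus favoured in advance and adds nothing to the count. In bulk RNA, fewer differentiated cells and less RNA per cell cannot be told apart. Of the 6 myoblast and muscle markers, 0 rose and 3 fell with PFI-3 at each of these stages, Myog, Ckm and Acta1 (log2 fold changes of -1.05, -1.36 and -1.32 at 24 h, and -0.62, -0.92 and -0.50 at 48 h). Myod1, Des and Myf5 were not called, with differences of -0.36, -0.22 and 0.26 at 24 h (adjusted p = 0.0574, 0.0897 and 0.247) and -0.23, -0.22 and -0.14 at 48 h (adjusted p = 0.206, 0.0786 and 0.534). The part of these markers in the results was not tested.

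Mylpf had 110.83 and 117.18 FPKM with PFI-3 at 24 h and 1854.53 and 1973.42 at 48 h, below every DMSO library of the same stage. The fall was 2.67-fold at 24 h (log2 fold change -1.42, SE 0.07, adjusted p = 1.55e-07) and 1.60-fold at 48 h (-0.68, SE 0.07, adjusted p = 1.81e-05). Myl1 had 28.92 and 28.74 FPKM with PFI-3 at 24 h, against 84.65 and 79.14 with DMSO, and 756.17 and 752.48 at 48 h, against 1265 and 1243. It fell 2.96-fold (-1.56, SE 0.09, adjusted p = 3.78e-07) and 1.76-fold (-0.81, SE 0.07, adjusted p = 9.79e-06), the latter not called by limma on log2(FPKM + 0.1) (-0.73, adjusted p = 0.113). For both fast skeletal chains the fall was thus smaller at the later stage, and the 2 libraries of a group lay close together.

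Myl4 was lower than these 2 chains in proportion. It had 7.77 and 8.20 FPKM with PFI-3 at 24 h and 254.41 and 266.90 at 48 h, a fall of 5.03-fold (-2.33, SE 0.10, adjusted p = 6.88e-08) and of 3.26-fold (-1.70, SE 0.07, adjusted p = 5.6e-08). Whether the Myl4 fall differs from that of Mylpf or Myl1 was not tested as such. Myl6b had 14.46 and 12.53 FPKM with PFI-3 at 24 h and 67.17 and 70.57 at 48 h, falls of 2.14-fold (-1.10, SE 0.18, adjusted p = 0.00137) and 3.63-fold (-1.86, SE 0.15, adjusted p = 3.51e-06). Its values at 48 h with PFI-3 lay between its 24 h and 48 h values with DMSO.

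Myl2 was listed at 2 and 3 counts with PFI-3 at 48 h, against 28 and 17 with DMSO. It passed the filter only through these 2 DMSO libraries, which favoured a fall from them. The counts of 5 and 45 give a DMSO to PFI-3 ratio of 9.39, with a 95% exact counting interval of 3.74 to 30.3. The call at 48 h (adjusted p = 0.00456) did not hold with DESeq2 (adjusted p = 0.0588) and without library A of the PFI-3 group (adjusted p = 0.0501). Myl2 at 24 h had 3 and 1 counts with DMSO and 0 and 0 with PFI-3, too few for a fold.

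Myl6, the light chain that declined in differentiation, had a small PFI-3 difference that changed with the stage. In GM its libraries had 697.59 and 692.34 FPKM with PFI-3, below both DMSO libraries (log2 fold change -0.51, SE 0.09, adjusted p = 0.00467). Without library A of the GM DMSO group the difference was -0.33 (adjusted p = 0.00431), and with only the 4 GM libraries in the fit the adjusted p was 0.272, or 0.0288 when the replicate letter was a block there; 12 of 13 alternative fits called it. At 24 h it had 552.15 and 563.48 FPKM with PFI-3 (-0.33, SE 0.09, adjusted p = 0.0192), a call that was lost without any 1 of the 4 libraries (adjusted p from 0.0809 to 0.122). At 48 h its PFI-3 libraries, 526.49 and 550.72 FPKM, lay above the DMSO ones, and the difference was not called (0.19, SE 0.09, adjusted p = 0.153). The sign at 48 h was positive in all 13 alternative fits, 4 of which called it.

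**Figure D3:**
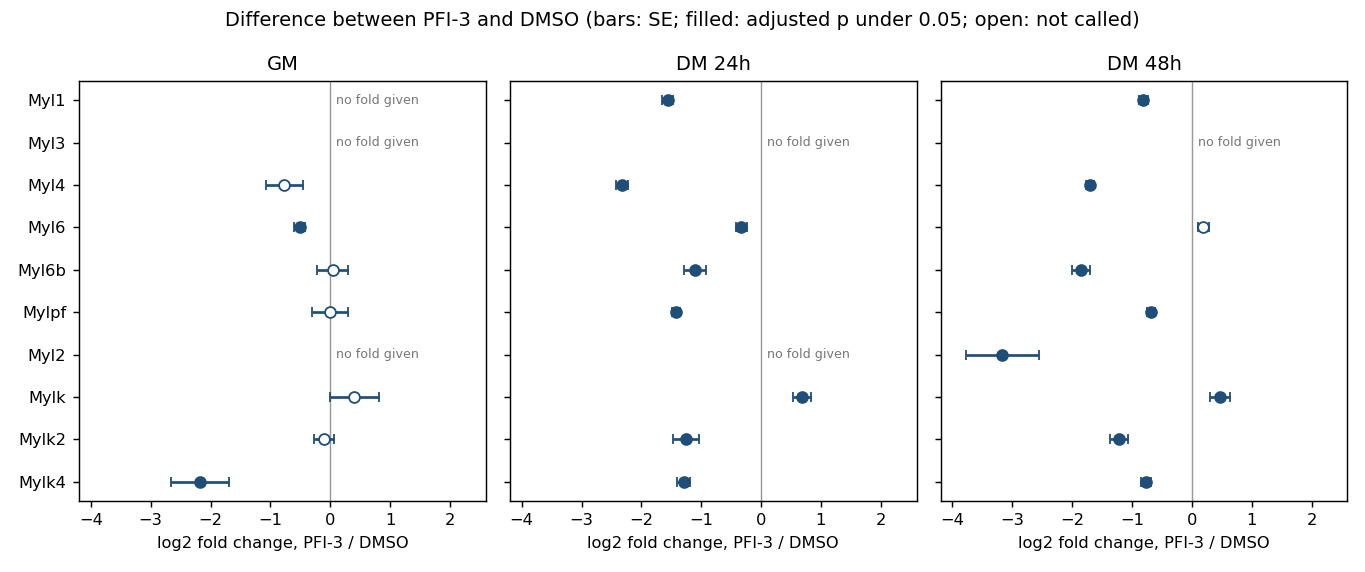
Log2 fold change of PFI-3 against DMSO for each gene at the 3 stages, with bars for the standard error; filled points have an adjusted p under 0.05 and open points do not, and no fold is given where every library held 3 counts or fewer. Most points lie left of 0 at 24 h and 48 h, Mylk lies right of it, and Myl4 sits at -2.33 and -1.70.

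Among the kinases, Mylk2 and Mylk4 were lower with PFI-3 and Mylk was higher. Mylk2 had 0.82 and 0.74 FPKM with PFI-3 at 24 h and 3.46 and 3.02 at 48 h, falls of 2.39-fold (-1.26, SE 0.22, adjusted p = 0.00174) and 2.32-fold (-1.21, SE 0.15, adjusted p = 0.000124). Mylk4 had 1.21 and 1.43 FPKM with PFI-3 at 24 h and 13.88 and 13.40 at 48 h, falls of 2.44-fold (-1.29, SE 0.11, adjusted p = 1.09e-05) and 1.71-fold (-0.77, SE 0.08, adjusted p = 2.33e-05). In both genes every PFI-3 library lay below every DMSO library of its stage.

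Mylk had 7.09 and 6.67 FPKM with PFI-3 at 24 h, above 4.29 and 3.97 with DMSO, and 5.02 and 4.80 at 48 h, above 3.36 and 3.32. The rises were 1.61-fold (0.69, SE 0.15, adjusted p = 0.00732) and 1.39-fold (0.47, SE 0.16, adjusted p = 0.0453). Neither call is firm: that at 24 h was lost without library A or B of the DMSO group (adjusted p = 0.0504 and 0.0785) or library A of the PFI-3 group (0.076), and that at 48 h without any 1 of its 4 libraries (0.134 to 0.21). Limma on log2(FPKM + 0.1) called neither (adjusted p = 0.098 and 0.184). Of the 13 alternative fits, 9 called the rise at 24 h and 8 that at 48 h. Beside this rise, Pdgfra, a receptor that marks fibroblasts and related mesenchymal cells, was higher with PFI-3 by 1.14 on the log2 scale at 24 h (adjusted p = 0.00224) and by 1.07 at 48 h (adjusted p = 0.00263). The summed level of 6 fibroblast and adipogenic markers was 50.2 and 53.4 CPM with PFI-3 at 24 h, against 29.7 and 27.8 with DMSO, and 47.9 and 46.8 CPM at 48 h, against 38.5 and 40. Of the 4 tested, 2 rose and 0 fell at 24 h (12.2% and 11.4% of all genes). At 48 h 2 rose and 1 fell (13.4% and 14.0% of all genes). None of the 6 was at 0 in every library, and the part of these markers in the Mylk result was not tested. Markers of smooth muscle, where Mylk is abundant, moved the other way, from 2640 and 2660 CPM with DMSO to 1440 and 1490 with PFI-3 at 24 h. Most of that sum was Acta2, smooth muscle actin, with 2410 and 2430 CPM against 1270 and 1310 (log2 fold change -0.91, SE 0.32, adjusted p = 0.0582), and none of the 5 tested was called at 24 h. At 48 h the smooth muscle sum was 5240 and 5130 CPM with DMSO and 3580 and 3630 with PFI-3. Of the 5 tested, 0 rose and 1 fell, against 13.4% and 14.0% of all genes. Myh11, the smooth muscle heavy chain, had at most 5 counts in any library.

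In proliferating cells few of these genes were called: 0 of the 9 genes tested rose and 2 fell, against 5.46% and 6.15% of all genes. All GM calls given here come from a model that shares 1 spread over the stages, although the GM pairs differed most. With only the 4 GM libraries fitted, 18 of 12545 genes rose and 20 fell. With the replicate letter as a block there, 491 rose and 431 fell, so GM calls depend on the model. Besides Myl6, the called gene was Mylk4, with 11 and 7 counts with DMSO and 1.79 and 2 with PFI-3. On 18 and 4 rounded counts the DMSO to PFI-3 ratio was 4.75, with a 95% exact counting interval of 1.57 to 19.3. Its call (adjusted p = 0.0209) was lost with DESeq2 (0.0526), with only the 4 GM libraries (0.364) and without library A of the DMSO group (0.168), library A of the PFI-3 group (0.073) or library B of the PFI-3 group (0.0745), and is not firm. Myl4 (1.26 and 0.99 against 0.53 and 0.85 FPKM, adjusted p = 0.244), Myl6b, Mylpf, Mylk and Mylk2 were not called, and Myl1 and Myl2 had 3 counts or fewer in every GM library.

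Differentiation with PFI-3 present still raised Mylpf, Myl1, Myl4 and Myl6b, while Myl2 was not called at either step (adjusted p = 1 and 0.0928) and Myl3 was below the filter. From GM to 24 h 6 genes rose and 2 fell, where 32.1% and 28.2% of all genes did, and from 24 h to 48 h 6 rose and 1 fell, where 13.1% and 14.2% of all genes did. Mylpf rose 97.4-fold and then 17.1-fold, Myl4 11.2-fold and then 32.9-fold, and Myl6b 2.24-fold and then 5.18-fold, all called at each step. Myl1 went from 1 and 1 counts in GM to 314 and 311 at 24 h, a ratio of 331 with an interval of 91.2 to 2740, and rose 26.6-fold to 48 h. The genes that fell from GM to 24 h were Myl6 (1.24-fold, adjusted p = 0.0105, or 0.0632 without library A of the 24 h group) and Mylk2 (3.20-fold, adjusted p = 2.64e-05). The gene that fell from 24 h to 48 h was Mylk (log2 fold change -0.46, adjusted p = 0.0402), which no fit that left out 1 of its libraries called, and Myl6 then differed by -0.03 (SE 0.09, adjusted p = 0.837).

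The PFI-3 difference itself was compared between stages by interaction terms. Between 24 h and 48 h 5 genes moved upward and 0 downward, against 7.12% and 4.97% of all genes. For Myl1 (0.75, SE 0.11, adjusted p = 0.00112), Mylpf (0.74, SE 0.10, adjusted p = 0.000436), Myl4 (0.63, SE 0.12, adjusted p = 0.00598) and Mylk4 (0.52, SE 0.14, adjusted p = 0.031) this means a smaller fall at 48 h than at 24 h. For Myl6 it means a fall at 24 h and a positive difference at 48 h (0.52, SE 0.13, adjusted p = 0.0203). Myl6b leaned the other way, with a larger fall at 48 h, but the term was not called (-0.76, SE 0.24, adjusted p = 0.0558). Between GM and 24 h 0 genes moved upward and 1 downward, against 1.78% and 1.59% of all genes: Mylk2 (-1.15, SE 0.28, adjusted p = 0.0465), which was not called in GM and fell at 24 h. The Mylk2 call is not firm, since DESeq2 (adjusted p = 0.0709) and the replicate block over all libraries (0.056) lost it. The terms of Myl4 (-1.56, SE 0.35, adjusted p = 0.0522), Mylpf (-1.41, SE 0.31, adjusted p = 0.0559) and Myl6b (-1.14, SE 0.32, adjusted p = 0.076) were of like or larger size and missed the threshold. DESeq2 called all 3 (adjusted p = 0.0352, 0.0478 and 0.00219), but most alternative fits did not: 5, 3 and 4 of 17 called them. The Myl1, Mylpf and Myl4 terms are the better supported ones: leaving out 1 library kept the call in 8 of 8, 8 of 8 and 7 of 8 fits, against 0 of 8 for Myl6, 1 of 8 for Mylk4 and 2 of 8 for Mylk2. With limma on log2(FPKM + 0.1) the Myl1 and Myl4 terms lost their calls (adjusted p = 0.317 and 0.104), and DESeq2 lost that of Mylk4 (0.0913).

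Because FPKM is per length, the make-up of each class could be followed within a library. The shares are a description and were not tested. Among the 5 essential chain genes, Myl6 held 99.5% and 99.0% of the summed FPKM in GM with DMSO, 81.5% and 82.8% at 24 h, and 16.1% and 16.5% at 48 h. At 48 h Myl1 held 46.3% and 45.4% and Myl4 29.0% and 29.4%, so the sarcomeric chains had become the larger part. With PFI-3 Myl6 held 91.5% and 91.9% at 24 h and 32.8% and 33.6% at 48 h. The Myl1 share at 48 h was 47.1% and 45.9% with PFI-3, overlapping that with DMSO, while the Myl4 share was 15.9% and 16.3% and the Myl6b share 4.19% and 4.30%, against 8.61% and 8.60% with DMSO. The summed essential chain FPKM at 48 h was 1600 and 1640 with PFI-3 and 2730 and 2740 with DMSO.

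The regulatory class was formed of Mylpf and Myl2 with Myl7, Myl9, Myl10, Myl12a and Myl12b, which are not among the 10 genes. In its summed FPKM the nonmuscle chain Myl12a held 66.2% and 67.1% in GM with DMSO, and Mylpf 0.153% and 0.205%. Mylpf reached 31.0% and 29.5% at 24 h and 79.8% and 80.1% at 48 h with DMSO. With PFI-3 it held 15.0% and 15.3% at 24 h and 72.9% and 73.9% at 48 h. The libraries of the 2 treatments did not overlap at either stage, which with 2 libraries in each group is weak evidence of a difference.

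The leading kinase changed with the stage. In a class of Mylk, Mylk2, Mylk3 and Mylk4, formed after the values had been seen, Mylk2 held 87.8% and 88.7% of the summed FPKM in GM with DMSO, Mylk 47.0% and 42.9% at 24 h, and Mylk4 63.5% and 67.1% at 48 h. With PFI-3 the Mylk share at 24 h was 77.5% and 74.7%, and at 48 h 22.2% and 22.3%, against 9.84% and 10.0% with DMSO. The summed kinase FPKM at 24 h was 9.12 and 9.25 with DMSO and 9.15 and 8.93 with PFI-3, so the sums overlapped while the make-up did not.

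**Figure D4:**
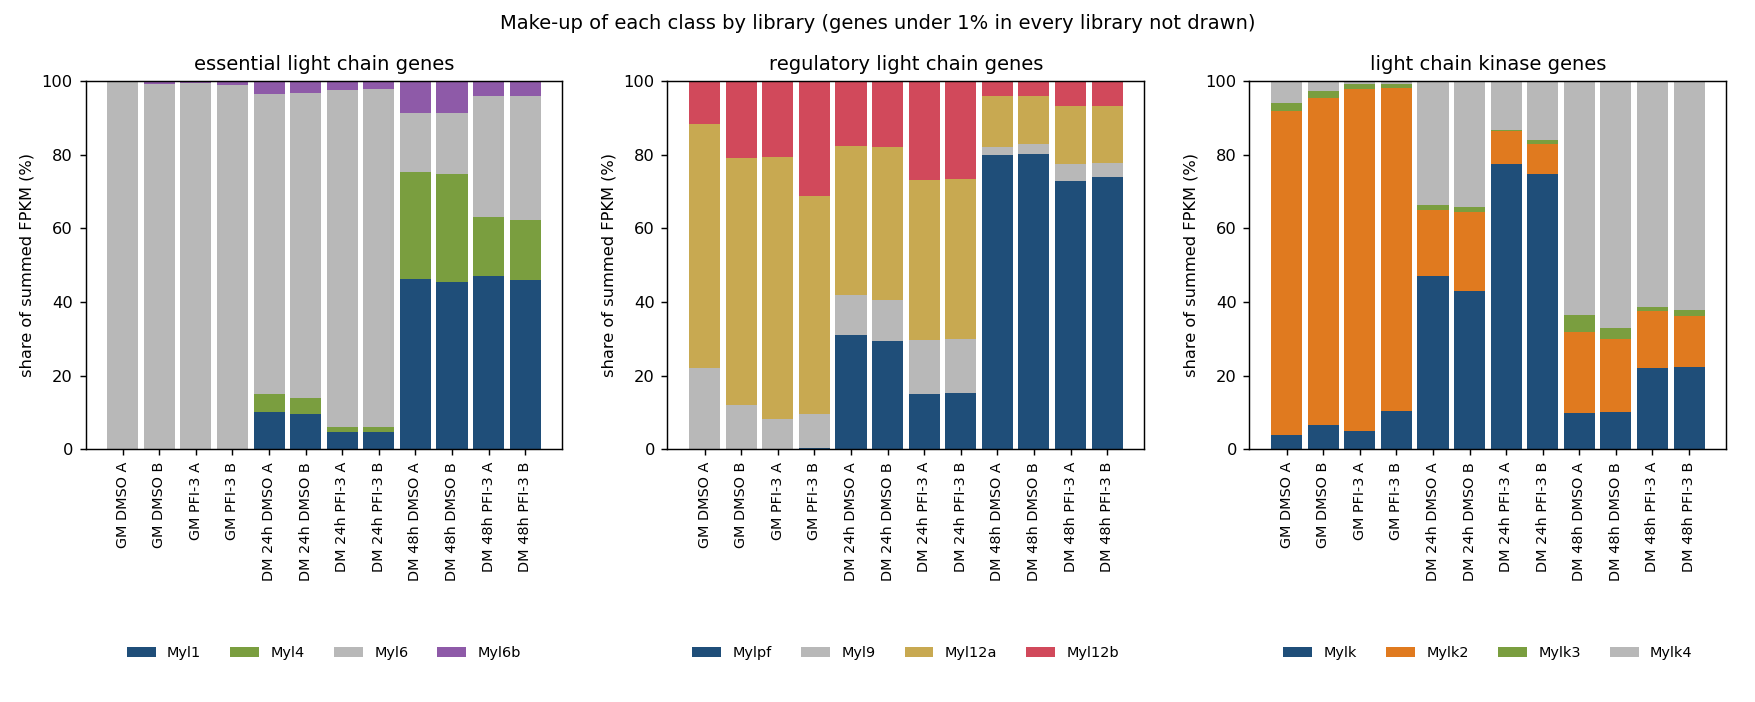
Share of the summed FPKM (%) of each class held by each gene in every library, in the order GM, 24 h, 48 h with DMSO and PFI-3 side by side. Myl6 fills the essential class in GM and holds 16.1% to 33.6% at 48 h, Mylpf takes over the regulatory class, and the leading kinase passes from Mylk2 to Mylk to Mylk4.

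The other light chain genes give the setting. Myl9, a smooth muscle and nonmuscle regulatory chain, had 177 and 75.5 CPM in GM with DMSO and 41.3 and 51.7 with PFI-3 (log2 fold change -1.44, SE 0.28, adjusted p = 0.00787). Without library A of the DMSO group, the one with high smooth muscle markers, it was -0.70 (adjusted p = 0.00278). At the later stages Myl9 did not pass the test, with differences of -0.00 and 0.18 (adjusted p = 0.992 and 0.671). Myl12a fell by 0.49, 0.34 and 0.32 on the log2 scale in GM, then at 24 h and at 48 h (adjusted p = 0.00721, 0.021 and 0.024), the GM value being -0.32 without the same library (adjusted p = 0.0147), and Myl12b was not called at any of them (adjusted p = 0.339, 0.545 and 0.535). Myl12a and Myl12b are near-identical copies that can share reads, so the split between them is uncertain. Myl7, the atrial regulatory chain, and Myl10 were below the filter.

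Other genes that set light chain phosphorylation were mostly not called. Of 18 such genes (among them kinases, myosin phosphatase and its inhibitors), 17 were tested. In GM 0 rose and 2 fell (5.46% and 6.15% of all genes), the small GTPase Rhoa (-0.21, adjusted p = 0.0396) and the phosphatase inhibitor Ppp1r14b (-0.46, adjusted p = 0.00628). At 24 h 0 rose and 3 fell (12.2% and 11.4% of all genes), namely Rhoa (-0.20, adjusted p = 0.0252), Cit, the citron kinase (-0.41, adjusted p = 0.00273), and Ppp1cb, the catalytic subunit of myosin phosphatase (-0.21, adjusted p = 0.0337). At 48 h the kinases Rock1 (0.33) and Cit (0.66) were among those that rose (13.4% of all genes), and 2 fell (14.0% of all genes), Ppp1cb (-0.22) and the cardiac light chain kinase Mylk3 (-2.17, SE 0.36, adjusted p = 0.000876, from 51 and 32 to 9 and 10 counts). Mylk3 had 4 counts or fewer in every GM and 24 h library and passed the filter through its 48 h DMSO libraries. Its fall from them was thus favoured in advance and adds nothing to the count.

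Most heavy chains and their partners fell with PFI-3 in differentiation medium. Of 19 such genes 16 were tested, and 0 rose and 1 fell with PFI-3 in GM, 0 rose and 11 fell at 24 h, and 2 rose and 12 fell at 48 h. Over all genes 5.46%, 12.2% and 13.4% rose and 6.15%, 11.4% and 14.0% fell. In GM the gene was Myh9, a nonmuscle heavy chain (-0.33, adjusted p = 0.0471). The most abundant that fell at 24 h were Mybph, myosin binding protein H (-1.86, SE 0.08), Myh3, the embryonic heavy chain (-1.64, SE 0.07), and Unc45b, a myosin chaperone (-1.56, SE 0.13), and the same 3 fell at 48 h by 0.89, 0.58 and 0.70 on the log2 scale. Those that rose at 48 h were Myh10, a nonmuscle heavy chain (0.53, SE 0.07, adjusted p = 0.000173), and the chaperone Hsp90aa1 (0.25, SE 0.08, adjusted p = 0.0383).

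Each gene was last compared with all others over the 12 libraries by the correlation of log2 CPM, as a description in which stage and library are shared by every point. Mylpf was most like Myh3, Mybph and Pgm5 (r = 0.999 for each), and Myl1 was most like Myom3 (1.000), Mylpf (0.999) and the fast troponin T gene Tnnt3 (0.999). Myl4 had Bin1 (0.997) and Csrp3 (0.995) among its closest genes, and Myl6b was closest to Prkaca (0.994), Rnf11 (0.992) and 4833439L19Rik (0.991). Myl6 was closest to Gmps (0.987), Actg2 and Ywhab (0.978 each), and Myl2 to Dgkz (0.971), Rrad and Dvl1 (0.966 each). Among the kinases Mylk was closest to Mxd4 (0.997), Trp53inp1 (0.996) and Sobp (0.995), Mylk4 to Zfp568 (0.996), Mfsd7a and Pdlim3 (0.995 each), and Mylk2 to Ubash3b (0.967), P2ry2 (0.964) and Tuba4a (0.958). Within the family Mylk and Mylk2 had r = -0.132, and Mylk4 and Mylpf 0.987.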

How the data were processed

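RNA was sequenced from 12 libraries of C2C12 cells, and 1 table per library was deposited. Per the file headers, each gives an expected count, an FPKM and a length per gene, and the authors did not pool replicates. The submitters' processing notes name HISAT, StringTie, Cufflinks, Bowtie, RSEM, DESeq2 and mm10, and the role of each is not given in the sources used here. A gene missing from a table was taken as 0. The genes were chosen by symbol, and the members and lists were chosen with earlier results of these data known. Expected counts were rounded and tested with edgeR 4.0.16 (quasi-likelihood, TMM, R 4.3.3) in 1 model of 6 groups. The filter kept 12545 of 16288 genes, the Benjamini-Hochberg adjustment ran over these, and an adjusted p under 0.05 was a call. The test and its alternatives were also run on simulated counts. The SE is the absolute log2 fold change divided by the square root of the F statistic. CPM are counts scaled by the TMM totals. Shares used the deposited FPKM. A floor of 3 counts was used for genes near 0. Alternatives were other size factors, DESeq2 1.42.0, other filters, limma 3.58.1 on log2(FPKM + 1) or log2(FPKM + 0.1), only the libraries compared, a replicate block and leaving out each library. The kinase class and the GM light chain fits without 1 library were chosen after seeing the data. The genes named were all 10, every other light chain, for the other lists up to 3 called genes of highest mean FPKM per direction, and the 3 most similar genes of at least 5 CPM. Coordinates come from GENCODE on GRCm38 and promoters from RefSeq. Some genes that these rules name are not reported here.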

Additional observations from a re-analysis of the deposited data

Results flagged for a closer look

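The PFI-3 difference changed between 24 h and 48 h for 5 genes, as tested by the interaction term in edgeR: Myl1 by 0.75 (SE 0.11, adjusted p = 0.00112), Mylpf by 0.74 (SE 0.10, adjusted p = 0.000436), Myl4 by 0.63 (SE 0.12, adjusted p = 0.00598), Myl6 by 0.52 (SE 0.13, adjusted p = 0.0203) and Mylk4 by 0.52 (SE 0.14, adjusted p = 0.031) on the log2 scale. The Myl6 and Mylk4 terms are not firm, as described above. Mylk4 lost its call with DESeq2 (adjusted p = 0.0913) and with limma on log2(FPKM + 1) and log2(FPKM + 0.1) (0.341 and 0.202). Between GM and 24 h the term was called for Mylk2, at -1.15 (SE 0.28, adjusted p = 0.0465), and lost with DESeq2 (0.0709), limma on log2(FPKM + 1) (0.0593), only the libraries compared (0.14), the replicate block over all libraries (0.056) and 6 of 8 fits without 1 library. Myl4 (-1.56, adjusted p = 0.0522) and Mylpf (-1.41, adjusted p = 0.0559) had larger terms that were not called.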

How the results depend on the processing

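The PFI-3 counts at 24 h and 48 h (8 genes called at each) stayed within 1.5 times under every alternative run, and ranged from 6 to 7 when 1 library was left out. In GM, where 2 were called, DESeq2 and limma on log2(FPKM + 1) called 1, only the libraries compared 0, the replicate block with only these libraries 1, and fits without 1 library 1 to 2. For the change in the PFI-3 difference from GM to 24 h (1 called), other size factors gave 2, DESeq2 3, limma 4 and 3 with a pseudocount of 1 and 0.1, only the libraries compared 0, the replicate block 0 with all libraries and 2 with those compared, and fits without 1 library 0 to 3. From 24 h to 48 h (5 called), limma on log2(FPKM + 0.1) gave 2 and fits without 1 library 2 to 4. Same-letter libraries deviated together only in GM (correlation 0.488, other pairs -0.045 to 0.093). The main model took no pairs, since what the letters mark is not given, and so leaves out this shared deviation in GM. It matters there: with only the 4 GM libraries, 18 genes rose and 20 fell without the block, and 491 and 431 with it.

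Signs reversed for differences that the main test had not called, and the cause was not tested. From 24 h to 48 h with PFI-3, Myl6 was 0.01 with other size factors and with DESeq2, 0.00 with only the libraries compared and with the replicate block there, and -0.07 to 0.00 without 1 library. In GM, Mylpf was 0.01 with only the libraries compared, 0.00 with the block there and -0.38 to 0.28 without 1 library, where Myl6b ranged from -0.42 to 0.51, Mylk from -0.52 to 0.94 and Mylk2 from -0.23 to 0.03. For the change from GM to 24 h, Mylk ranged from -0.26 to 1.21 without 1 library, and Mylk4 was -0.70 (adjusted p = 0.0077, called) and -0.38 with limma at pseudocounts 1 and 0.1. For that from 24 h to 48 h, Myl2 was -1.20 (adjusted p = 0.0059, called) and -1.01 with limma, and Mylk2 -0.27 with limma on log2(FPKM + 1) and -0.12 to 0.18 without 1 library. DESeq2 gave no adjusted p for this Myl2 term. Depth limits Myl2, Myl3, and in GM Myl1 and Mylk4.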
